A study of Mus musculus with 48 samples.

Results

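Tregs and conventional CD4 T cells (Tcons) were profiled by RNA-seq in mice given an Fc-fused human IL-2, and 7 genes for transcription regulators of effector Tregs were followed here: Irf4, Prdm1, Batf, Bach2, Myb, Id2 and Id3. They were picked by symbol from 53345 genes, with earlier results of these data known, and 7 of 7 were measured and passed the filter on low values. C57BL/6 female mice of 8 to 12 weeks were injected under the skin on day 0 with PBS or with a 25 µg dose of 1 of 3 molecules: WT IL-2, H16R or 3x. H16R and 3x are attenuated muteins of IL-2, named for a histidine-to-arginine change and for a combination of 3 changes. All groups shared an antibody treatment of 500 µg on each of day -1 and day 0 (2 doses), either an isotype control or an antibody that blocks MHC II, the molecule that shows antigen to the T cell receptor (TCR) of CD4 T cells. Spleens were taken on day 4. Tregs were the CD25+ cells selected from CD4 T cells, 4 mice in each of 8 groups, and Tcons were the CD25- cells of the same spleens, 2 mice in each of 8 groups. CD25 is itself a subunit of the IL-2 receptor, so the selection rests on a molecule that the treatment acts on, and the labels name no engineered allele.

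Effector Tregs arise from resting Tregs when TCR and cytokine signals reach the cell. BATF, a small AP-1 protein, and IRF4 bind DNA together downstream of the TCR, and Blimp-1, the product of Prdm1, is a repressor of the mature effector stage that is also the master regulator of plasma cells. BACH2 is a repressor that competes with AP-1 proteins for their sites and holds T cells in a resting state. c-Myb is a transcription factor of progenitors and lymphocytes that also takes part in effector Treg differentiation. ID2 and ID3 bind no DNA themselves. They pair with E proteins and keep them off their E-box sites, and effector T cells tend to exchange Id3 for Id2.

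Total expected counts, which are estimated fragments per gene and need not be whole, ranged from 18.28 to 51.24 M in Treg libraries and from 31.31 to 51.95 M in Tcon libraries. The lowest totals, 18.28, 20.18 and 24.53 M, were those of 3 of the 4 isotype PBS Tregs. The defining markers of Tregs (Foxp3, Il2ra, Ikzf2 and Ctla4) summed to 2245 to 4228 CPM (fragment counts scaled to library size, and between libraries by TMM) in Tregs and to 281 to 1331 CPM in Tcons, with none at 0. Several libraries stood apart from their group in a marker list, among them the following 3. Isotype PBS replicate 1 of the Tregs held 544 CPM of B cell markers against at most 129 CPM in its group. MHC II block WT IL-2 replicate 1 of the Tregs held 457 CPM of myeloid markers and 518 CPM of B cell markers. Isotype WT IL-2 replicate 2 of the Tcons held 1331 CPM of Treg markers against 516 CPM in replicate 1. In bulk RNA, fewer cells of a type and less RNA per cell cannot be told apart.

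Prdm1 and Bach2 were inversely correlated over the 32 Treg libraries (Pearson's r of log2 CPM = -0.88, across libraries that share groups). The 250 bases before the transcription start that RefSeq gives for each are shown because these are the best separated members. They were read on GRCm38.p6, from chr10:44458749-44458998 on the minus strand and from chr4:32417185-32417434 on the plus strand. Both windows lie inside an intron of the longer GENCODE vM21 gene, with 0 bases in an exon, so each belongs to 1 start among several. Capitals mark matches to 3 motifs.

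Prdm1: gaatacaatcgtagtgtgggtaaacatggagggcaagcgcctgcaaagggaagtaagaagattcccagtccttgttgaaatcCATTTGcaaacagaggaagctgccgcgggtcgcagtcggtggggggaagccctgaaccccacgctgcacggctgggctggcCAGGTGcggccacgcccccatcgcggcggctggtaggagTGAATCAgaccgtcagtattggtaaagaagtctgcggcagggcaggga
Bach2: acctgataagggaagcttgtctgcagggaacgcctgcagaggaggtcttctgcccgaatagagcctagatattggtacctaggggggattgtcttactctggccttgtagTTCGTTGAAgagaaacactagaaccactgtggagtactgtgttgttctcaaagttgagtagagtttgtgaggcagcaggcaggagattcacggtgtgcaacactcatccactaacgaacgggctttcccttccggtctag

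The motifs searched were TTCNNNGAA, the form bound by STAT factors such as the STAT5 that IL-2 activates, CANNTG, the E-box, and TGANTCA, the AP-1 form. Each reads the same on both strands, and no 2 matches overlapped. The Prdm1 window held 1 AP-1 match, TGAATCA at position -48 from the start, and 2 E-boxes at -168 and -87. The Bach2 window held 1 STAT match, TTCGTTGAA at position -140, and 0 matches of the others. Of 32851 RefSeq windows of this length, 7.02% held the STAT motif, 66.2% an E-box and 6.75% the AP-1 motif. A match describes the letters only.

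Per length of transcript, Batf and Id2 were the most abundant of the 7 genes in Tregs. In FPKM, which divides by transcript length and library size, the Treg medians over 32 libraries were 86.1 for Batf, 81.9 for Id2, 31.0 for Irf4, 24.6 for Id3, 14.2 for Prdm1, 11.2 for Bach2 and 9.95 for Myb. Batf (62.3 to 133 FPKM) and Id2 (62.9 to 119 FPKM) overlapped over the libraries, as did Bach2 (7.07 to 17.2 FPKM) and Myb (5.53 to 21.9 FPKM). In Tcons the medians over 16 libraries were 130 FPKM for Id2, 45.0 for Myb, 35.3 for Batf, 22.2 for Irf4, 14.2 for Id3, 12.6 for Bach2 and 6.50 for Prdm1. Id2 was first in Tcons, and Myb moved from last in Tregs to second.

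**Figure D1:**
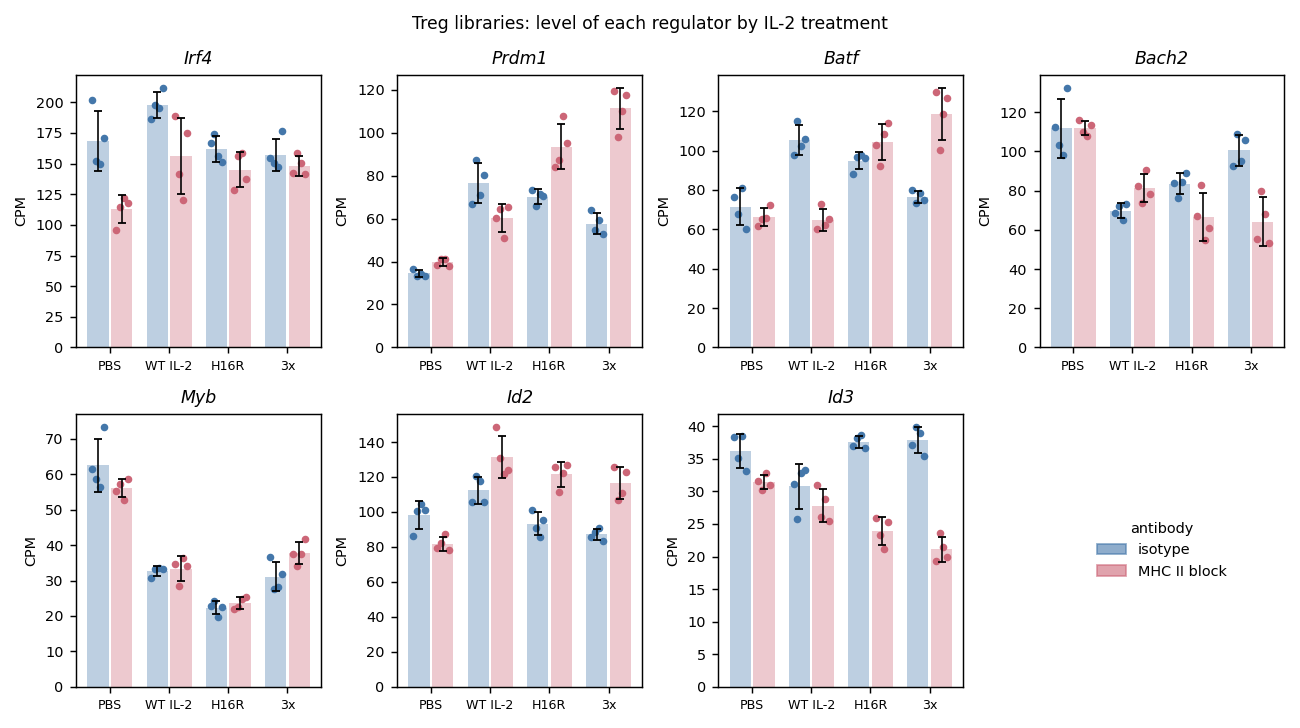
Level of each regulator in CPM (vertical axis, from 0) in Tregs, by IL-2 treatment and antibody arm. Bars are means, whiskers the SD, and points the 4 mice of a group. Prdm1 and Batf with 3x were highest under MHC II block, and Id3 with 3x was lowest there.

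IL-2 raised Prdm1 in Tregs with every molecule and in both antibody arms. The first comparison asked how Tregs with an unblocked TCR respond to each molecule. With isotype antibody, Prdm1 was at 36.7, 33.4, 34.4 and 33.4 CPM in the 4 PBS mice and at 66.9, 87.5, 71.0 and 80.2 CPM in the 4 WT IL-2 mice. It was at 73.5, 65.6, 71.6 and 70.4 CPM with H16R, and at 63.9, 54.5, 59.1 and 52.8 CPM with 3x. Every IL-2-treated mouse was above every PBS mouse. Against PBS, Prdm1 rose 2.21-fold with WT IL-2 (log2 fold change 1.14 ± 0.09 SE, n = 4 a group), 2.04-fold with H16R and 1.68-fold with 3x. The adjusted p-values were 6.19e-11, 1.59e-10 and 5.81e-08 (edgeR quasi-likelihood test, Benjamini-Hochberg over all genes tested, threshold 0.1, which holds for every adjusted p below).

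Under MHC II block the order of 3x and WT IL-2 was reversed. Prdm1 was at 38.2, 41.2, 41.1 and 37.8 CPM with PBS and at 60.3, 64.5, 51.0 and 65.6 CPM with WT IL-2. With H16R it was at 84.0, 87.1, 108 and 95.4 CPM, and with 3x at 119, 97.9, 110 and 118 CPM. WT IL-2, H16R and 3x thus stood at 1.54, 2.36 and 2.79 times PBS (log2 0.63, 1.24 and 1.48, each ± 0.09 SE), with adjusted p-values of 6.45e-06, 3.14e-12 and 3.22e-14. The response to WT IL-2 was smaller under block than with isotype by 0.52 on the log2 scale (interaction -0.52 ± 0.12 SE, adjusted p = 0.00477), while that to 3x was larger by 0.73 ± 0.12 SE (adjusted p = 9.26e-05). That to H16R differed by 0.21 ± 0.12 SE (adjusted p = 0.274). H16R and WT IL-2 did not differ past the threshold with isotype (log2 -0.12, adjusted p = 0.407), and H16R was above WT IL-2 under block (log2 0.61, adjusted p = 2.82e-06). Compared directly, 3x was below WT IL-2 with isotype (log2 -0.40, adjusted p = 0.000997) and above it under block (log2 0.85, adjusted p = 3.69e-09).

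Plasma cell markers (Jchain, Sdc1, Mzb1, Tnfrsf17 and Derl3, all 5 measured and none at 0 in a Treg group) moved between the same groups. Plasma cells also express Prdm1 and Irf4. With isotype the 5 genes summed to 1530 to 1845 CPM with PBS, 653 to 790 with WT IL-2, 199 to 456 with H16R and 85.5 to 184 with 3x. Under block they summed to 611 to 1936 CPM with PBS, 1574 to 3197 with WT IL-2, 574 to 1259 with H16R and 600 to 1399 with 3x. Within each arm Prdm1 was lowest in the PBS mice, whose plasma cell markers were above those of the 3x mice in the isotype arm. Between arms, both Prdm1 and the plasma cell markers were higher under block with 3x and with H16R. Prdm1 differed there by log2 0.93 and 0.40 (adjusted p = 2.08e-09 and 0.00159). In WT IL-2-treated mice the markers were higher and Prdm1 lower under block (log2 -0.32, adjusted p = 0.00572). The part of plasma cell RNA in Prdm1 was not tested.

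**Figure D2:**
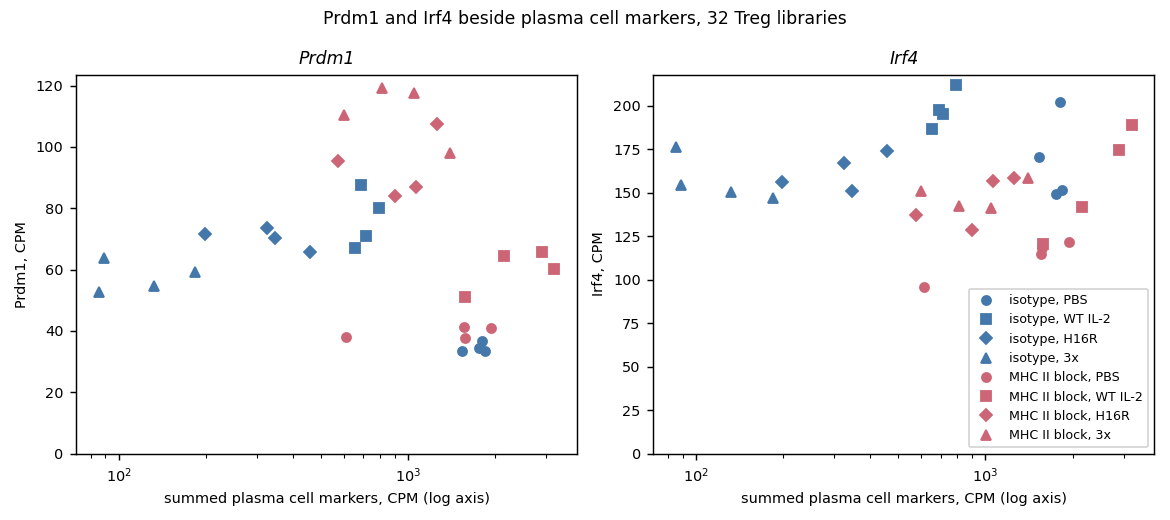
Prdm1 (left) and Irf4 (right) in CPM against the summed CPM of 5 plasma cell markers (log axis) in the 32 Treg libraries, 1 point a mouse, coloured by antibody and shaped by treatment. Isotype PBS mice combine the highest marker sums of their arm with the lowest Prdm1, blocked PBS mice spread from 611 to 1936 CPM of markers at low Prdm1, and the 4 MHC II block WT IL-2 mice spread in Irf4 from 120 to 189 CPM.

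Batf showed the same reversal between 3x and WT IL-2. With isotype, Batf was at 76.5, 68.0, 81.2 and 60.0 CPM with PBS, at 97.8, 115, 102 and 106 CPM with WT IL-2, and at 88.3, 96.7, 97.8 and 96.3 CPM with H16R. With 3x it was at 79.7, 73.5, 78.3 and 74.7 CPM and overlapped PBS. The rise was 1.47-fold for WT IL-2 (log2 0.55 ± 0.08 SE, adjusted p = 4.41e-06) and 1.33-fold for H16R (0.41 ± 0.08 SE, adjusted p = 0.000136), against 0.11 ± 0.08 SE for 3x (adjusted p = 0.287). Under block, Batf was at 61.7 to 72.5 CPM with PBS and at 59.9 to 72.6 CPM with WT IL-2, 2 groups that covered the same range. It was at 92.2 to 114 CPM with H16R and at 100 to 130 CPM with 3x, with no overlap with PBS. The differences from PBS were -0.01 ± 0.08 SE with WT IL-2 (adjusted p = 0.933), 0.65 ± 0.08 with H16R (adjusted p = 1.34e-07) and 0.83 ± 0.08 with 3x (adjusted p = 9.06e-10). The arms differed in the response to WT IL-2 (interaction -0.57 ± 0.12 SE, adjusted p = 0.00137) and to 3x (0.72 ± 0.12 SE, adjusted p = 5.33e-05). The Treg marker sum was 2245 to 3203 CPM in the blocked WT IL-2 mice and 3670 to 4197 CPM in the isotype WT IL-2 mice, and its part in the Batf difference was not tested.

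Irf4, the DNA-binding partner of BATF, did not follow Batf. Irf4 was lower with MHC II block alone. It was at 202, 152, 149 and 171 CPM in the isotype PBS mice and at 95.9, 115, 122 and 118 CPM in the blocked PBS mice, with no overlap (log2 -0.59 ± 0.11 SE, 0.667-fold, adjusted p = 0.00106). B cells also express Irf4, and all 5 B cell markers were lower in the same comparison, with sums of 99.9 to 544 CPM in isotype and 48.6 to 121 CPM in blocked PBS mice. The mouse with 202 CPM of Irf4 was the one with 544 CPM, and the part of B cells in the Irf4 difference was not tested. With isotype, Irf4 was at 187 to 212 CPM with WT IL-2, 151 to 174 CPM with H16R and 147 to 176 CPM with 3x, all 3 overlapping PBS. The rise with WT IL-2 was 0.23 ± 0.11 SE (adjusted p = 0.0961), and this call was lost in 17 of 41 alternative fits. H16R and 3x differed from PBS by -0.06 and -0.09, each ± 0.11 SE (adjusted p = 0.681 and 0.483). Under block all 3 molecules raised Irf4 against the lower PBS level, by 0.49 with WT IL-2 (adjusted p = 0.0015), 0.36 with H16R (adjusted p = 0.00643) and 0.39 with 3x (adjusted p = 0.00333), though the lowest WT IL-2 mouse lay within the PBS range. The response to 3x was larger under block by 0.48 ± 0.16 SE (adjusted p = 0.0219), and that to H16R by 0.42 ± 0.16 SE (adjusted p = 0.0801, lost in 7 of 32 fits that left out 1 library). Both interactions use the same PBS libraries. Among the blocked WT IL-2 mice, Irf4 was at 189, 142, 120 and 175 CPM beside plasma cell marker sums of 3197, 2147, 1574 and 2900 CPM, so the mouse with more of one had more of the other, and the part of plasma cells in this rise was not tested.

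Bach2 fell in 5 of the 6 comparisons of a molecule with PBS, and did not pass with 3x and isotype, where Prdm1 rose. B cells also express Bach2, and the medians of the summed B cell markers were 121 CPM in isotype PBS Tregs and 52.1, 28.4 and 28.3 CPM with WT IL-2, H16R and 3x, against 69.5 CPM in blocked PBS Tregs and 97.8, 59.0 and 54.0 CPM. Their part in the Bach2 differences was not tested. With isotype, Bach2 was at 112, 104, 98.3 and 133 CPM with PBS and at 68.6, 72.3, 64.8 and 73.1 CPM with WT IL-2, which did not overlap. With H16R it was at 76.2 to 89.2 CPM, below PBS, and with 3x at 92.5 to 109 CPM, overlapping PBS. It fell by 0.68 on the log2 scale with WT IL-2 (adjusted p = 1.96e-05) and by 0.41 with H16R (adjusted p = 0.00246), and 3x differed from PBS by -0.14 ± 0.11 SE (adjusted p = 0.288). Under block, Bach2 was at 108 to 116 CPM with PBS, 73.7 to 90.7 with WT IL-2, 55.0 to 83.1 with H16R and 53.3 to 80.1 with 3x. All 3 molecules lowered it there, by 0.44, 0.75 and 0.81 on the log2 scale (adjusted p = 0.00397, 1.97e-06 and 3.76e-07). MHC II block by itself left the Bach2 mean at 112 CPM in both arms (difference 0.00 ± 0.11 SE). The 3x response was larger under block by 0.67 ± 0.16 SE on the log2 scale (interaction -0.67, adjusted p = 0.00242), whereas those of WT IL-2 and H16R differed between arms by 0.24 and -0.34, each ± 0.16 SE (adjusted p = 0.364 and 0.16).

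Myb fell with every molecule, and most with H16R. Isotype Tregs held 61.5, 58.8, 56.5 and 73.4 CPM of Myb with PBS, 30.6, 33.2, 33.6 and 33.2 CPM with WT IL-2, 22.8, 24.3, 19.8 and 22.4 CPM with H16R and 36.6, 27.7, 28.2 and 31.8 CPM with 3x. No IL-2-treated mouse reached the PBS range in either arm. In the isotype arm WT IL-2 left Myb at 0.523 of its PBS level, H16R at 0.358 and 3x at 0.501, and under block these shares were 0.604, 0.422 and 0.669. The 6 adjusted p-values ran from 9.64e-14 to 7.2e-07. H16R was below WT IL-2 by 0.54 with isotype (log2 -0.54 ± 0.09 SE, adjusted p = 0.000204) and by 0.52 under block (log2 -0.52 ± 0.09 SE, adjusted p = 2.77e-05), and 3x was above H16R in both arms (log2 0.48 and 0.67, adjusted p = 0.0012 and 1.21e-05). Between WT IL-2 and 3x no difference in Myb passed the test (adjusted p = 0.643 with isotype and 0.126 under block). The fall with 3x was smaller under block by 0.42 ± 0.12 SE (adjusted p = 0.00969). Tcons held 98.2 to 163 CPM of Myb, more than any Treg library. Treg marker sums were 2449 to 3101 CPM in isotype PBS Tregs and 3670 to 4197, 3970 to 4069 and 3881 to 4070 CPM after the 3 molecules. Under block they were 2608 to 2816 CPM with PBS and 2245 to 3203, 3479 to 3848 and 3755 to 4228 CPM after them. The part of Tcons in the Myb differences was not tested.

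**Figure D3:**
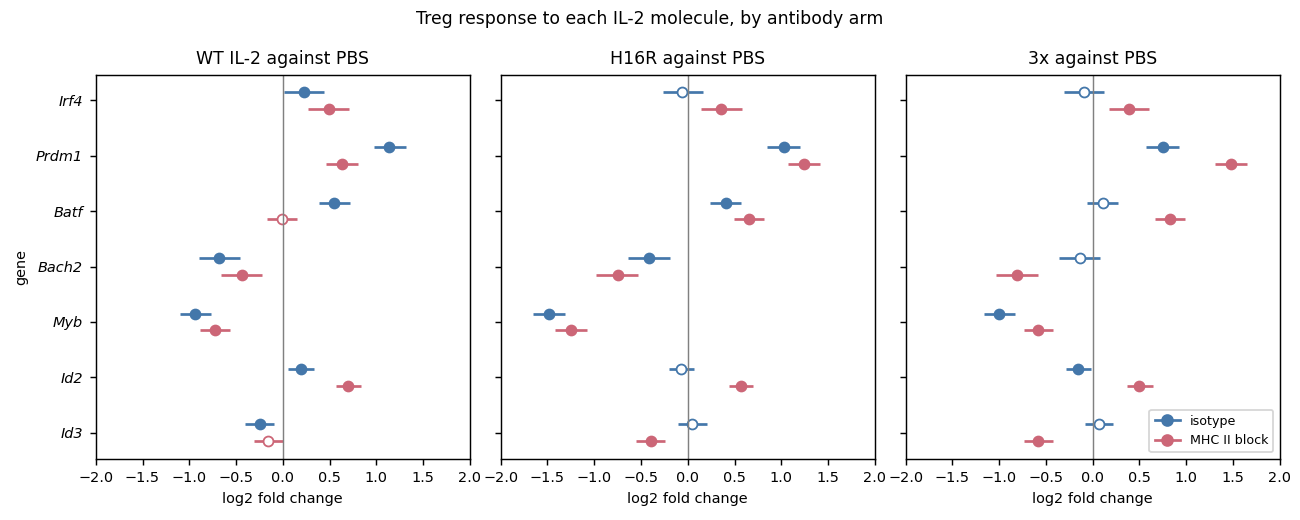
Log2 fold change of each regulator against PBS (horizontal axis) in Tregs for WT IL-2, H16R and 3x, with isotype antibody and with MHC II block. Lines are 95% intervals, and filled points passed the adjusted p threshold of 0.1. With 3x, all 7 genes passed under block and 3 passed with isotype, where 73.0% and 63.6% of all tested genes did.

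Id2 and Id3, the E protein inhibitors, responded to the muteins in opposite directions under MHC II block. Id2 was at 86.2, 100, 104 and 101 CPM with isotype and PBS, and at 79.1, 82.2, 87.3 and 78.2 CPM with block and PBS, where it was lower (log2 -0.26 ± 0.07 SE, adjusted p = 0.0158). Under block it was at 149, 131, 122 and 124 CPM with WT IL-2, at 126, 111, 122 and 127 CPM with H16R and at 126, 107, 111 and 123 CPM with 3x. All 12 of these mice were above all blocked PBS mice. The rises were 1.63-fold, 1.48-fold and 1.42-fold (adjusted p = 2.61e-08, 5.47e-08 and 2.67e-07). With isotype the same molecules moved Id2 by 0.20 (adjusted p = 0.0203), -0.07 (adjusted p = 0.408) and -0.16 (adjusted p = 0.053), each ± 0.07 SE, and the last of these calls was lost in 9 of 32 fits that left out 1 library. The response was larger under block for all 3 molecules, by 0.51, 0.64 and 0.66 on the log2 scale, each ± 0.10 SE (adjusted p = 0.00073, 0.000139 and 1.91e-05). These 3 interactions share the PBS libraries of both arms. NK cells and CD8 T cells also express Id2. The CD8 T cell markers Cd8a and Cd8b1 were both called higher than PBS under block with each molecule (median log2 fold change 2.14 for WT IL-2, 1.19 for H16R and 1.83 for 3x), and 0 of 2 were with isotype. In 2 groups 1 library stood well above the other 3: the summed CD8 T cell markers were 45.1, 13.6, 10.5 and 12.3 CPM in the blocked WT IL-2 mice and 16.2, 13.5, 14.0 and 36.7 CPM in the blocked 3x mice, against 7.29 to 8.97 CPM in the blocked PBS mice. The summed NK cell markers (Ncr1, Klrb1c, Klra8 and Klre1) had medians of 27.8 CPM in isotype PBS mice and 14.2, 8.58 and 10.3 CPM after the 3 molecules, against 21.2 CPM in blocked PBS mice and 34.2, 23.4 and 20.5 CPM. The part of these cells in the Id2 differences was not tested. The largest CPM of Id2 belonged to the blocked WT IL-2 mouse with the most myeloid and B cell RNA, and without it and the isotype PBS library set apart all 3 interactions still passed.

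In PBS mice MHC II block lowered Id3, like Id2, by 0.21 on the log2 scale (log2 -0.21 ± 0.08 SE, adjusted p = 0.092), a call lost in 15 of 32 fits that left out 1 library. With isotype, Id3 was at 33.1 to 38.5 CPM with PBS, 36.7 to 38.6 with H16R and 35.5 to 39.9 with 3x, which covered 1 range, and at 31.2, 25.8, 32.8 and 33.2 CPM with WT IL-2 (log2 -0.24 ± 0.08 SE, adjusted p = 0.0137, and 0.12 without replicate 2 of WT IL-2). Under block it was at 31.6, 30.2, 32.9 and 31.0 CPM with PBS, at 25.9, 23.3, 21.2 and 25.3 CPM with H16R and at 19.3, 23.6, 21.5 and 19.9 CPM with 3x. Every mutein-treated mouse under block was below every PBS mouse. The fall was 0.39 on the log2 scale for H16R (log2 -0.39 ± 0.08 SE, adjusted p = 0.000112) and 0.59 for 3x (log2 -0.59 ± 0.08 SE, adjusted p = 2.46e-07), and WT IL-2 differed from PBS by -0.16 ± 0.08 SE (adjusted p = 0.132). The arms differed for H16R (interaction -0.45 ± 0.11 SE, adjusted p = 0.0108) and for 3x (-0.65 ± 0.11 SE, adjusted p = 1e-04).

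Counted over the 7 genes, the comparisons of molecule and PBS with isotype called 7 with WT IL-2 (4 higher, 3 lower, where 52.2% of 12392 tested genes were called), 4 with H16R (64.2% of genes) and 3 with 3x (63.6%). Under block they called 5 for WT IL-2 (35.6%) and 7 for each mutein (66.5% for H16R and 73.0% for 3x). MHC II block against isotype called 3 of 7 in PBS mice, all lower (Irf4, Id2 and Id3, where 14.1% of genes were called), 4 in WT IL-2 mice (33.6%), 4 in H16R mice (30.7%) and 6 in 3x mice (54.1%). Mutein against WT IL-2 called 4 for H16R and 6 for 3x with isotype (18.6% and 34.7% of genes) and 6 and 5 under block (57.5% and 68.7%), and 3x against H16R called 3 in each arm (11.5% with isotype and 25.2% under block). The response differed between arms for 3 of 7 genes with WT IL-2 (19.7%), 3 with H16R (19.1%) and 7 of 7 with 3x (39.0%). The comparisons with PBS within 1 arm share their PBS mice. Among 7 genes, shares of this kind move by large steps, and in several comparisons the share was near that of all genes.

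Between the arms, 3x-treated Tregs differed in 6 of the 7 genes, where 54.1% of all tested genes did. Prdm1 was 1.90-fold higher under block (adjusted p = 2.08e-09) and Batf 1.53-fold (adjusted p = 1.03e-06), Id2 was 1.32-fold and Myb 1.20-fold higher, Bach2 was at 0.629 and Id3 at 0.549 of the isotype level, and Irf4 differed by -0.11 ± 0.11 SE on the log2 scale (adjusted p = 0.451). WT IL-2-treated Tregs, where 33.6% of all tested genes differed, showed the reverse for 2 of them. Block lowered Prdm1 to 0.800 and Batf to 0.624 of the isotype level (adjusted p = 0.00572 and 7.65e-07), together with Irf4 to 0.802 (adjusted p = 0.032, and 0.156 without replicate 3 under block), and Id2 was 1.18-fold higher (adjusted p = 0.0081).

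The other genes of the pathway were read from lists, beside the share of all genes called in the same comparison: 52.2% for WT IL-2 with isotype, 63.6% for 3x with isotype, 35.6% for WT IL-2 under block and 73.0% for 3x under block. The shares of 8 resting regulators and 12 effector regulators called with 3x and isotype were near that of all genes. Of 8 transcription regulators of resting Tregs, 3x called 3 higher and 3 lower with isotype and 1 higher and 6 lower under block (median log2 fold change 0.04 and -0.44). Under block, Tcf7 (log2 -0.97), an HMG-box factor of resting T cells, Myc (-0.77), the growth regulator, Klf2 (-0.72), which maintains genes of lymphoid recirculation, and Foxp1 (-0.47) fell. The response to 3x differed between arms for 7 of 8 (39.0% of all genes), all lower under block (Tcf7 by -0.64, Lef1 by -0.63). Of 12 other regulators of effector Tregs, 3x called 4 higher and 4 lower with isotype and 7 higher and 3 lower under block. Vdr, the vitamin D receptor (log2 3.25), Maf, a factor for Il10 (1.54), and Tbx21, the gene for T-bet (1.51), rose, and Bcl6, the antagonist of Blimp-1, fell by 0.73. Of 13 DNA-binding and dimer partners, 0 were called higher and 11 lower with 3x and isotype, and 1 higher and 7 lower under block, a smaller share than that of all genes, led by Maff (-1.57), Jun (-1.14) and Id1 (-1.02). With WT IL-2, 0 of the 13 partners were higher and 7 lower with isotype, and 3 higher and 2 lower under block. The resting regulators were then 2 higher and 4 lower with isotype and 0 higher and 4 lower under block, and the other effector regulators 7 higher and 2 lower, and 5 higher and 2 lower. Batf3, Irf8 and Spi1 belong to the DNA-binding and dimer partners and are also expressed by dendritic and B cells, whose markers fell with 3x and isotype (all 4 and all 5 lower).

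Most effector molecules rose with IL-2 in both arms. Of 16 surface and secreted molecules of effector Tregs, 14 were higher with WT IL-2 and isotype and 13 with 3x and isotype, and 13 and 14 under block, where 52.2%, 63.6%, 35.6% and 73.0% of all genes were called in either direction. Gzmb, a cytotoxic protease, stood at a log2 fold change of 3.03 for WT IL-2 and 4.43 for 3x with isotype, and of 3.22 and 6.35 under block. CD8 T cells and NK cells also express Gzmb, and both CD8 T cell markers were called higher under block with each of these molecules and neither with isotype, and their part was not tested. Il10, an inhibitory cytokine, stood at 2.14 and 1.76 with isotype and at 1.31 and 2.64 under block. The response to WT IL-2 was smaller under block for 11 of the 16 and larger for 1 (19.7% of all genes differed), and that to 3x was smaller for 1 and larger for 7 (39.0%). T cell markers (Cd3e, Cd3d and Cd4) summed to 1076 to 1413 CPM in blocked and 1468 to 1635 CPM in isotype WT IL-2 Tregs. With 3x these sums were 1448 to 1583 and 1424 to 1494 CPM. The part of cell composition in these differences was not tested. Of 8 proliferation genes, 7 were higher with 3x and isotype (median 1.23) and 8 under block (median 1.68), and the cycling gene Birc5 rose by 1.49 and 2.13. Of 8 surface molecules of resting Tregs, 6 were higher and 2 lower with 3x and isotype (63.6% of all genes called), and 3 higher and 4 lower under block (73.0%), where Ccr7, the lymphoid homing receptor, was lower by -1.43 and S1pr1, the exit receptor, higher by 0.78. The median of all tested genes stayed within 0.06 of 0 in every comparison.

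Over the 32 Treg libraries, Prdm1 and Batf rose and fell together (r = 0.84) and Batf and Bach2 apart (r = -0.82), whereas Irf4 correlated with no other member beyond 0.27 in size. These libraries fall into 8 groups, so the values describe the groups and carry no p. Among 9506 protein-coding genes above 5 CPM, those most like Prdm1 were Gpr107 (r = 0.971), 1700017B05Rik (0.970) and Rnh1, a ribonuclease inhibitor (0.964). Most like Batf were Pdcd1, the gene for PD-1 (0.950), and the glycolytic enzymes Pkm (0.937) and Tpi1 (0.923). Bach2 was followed most closely by Ifngr2, an interferon gamma receptor subunit (0.910), Znrf3 (0.907) and Sltm (0.906), and Myb by Tbl3 (0.935), Ipo5 (0.929) and Gstcd (0.925). For Id2 these were Sec24d (0.852), the chemokine Ccl5 (0.850) and Srpr (0.834), for Id3 Cnksr3 (0.913), Plk2 (0.901) and Tob1 (0.895), and for Irf4 the TCR-linked kinase Tec (0.782), Sh3tc1 and Myo1e (both 0.764).

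Tregs and Tcons of the same mouse were compared in 16 mice to place each regulator in its cell type. All 7 genes differed (80.5% of 12844 tested genes did). Batf was higher in Tregs in 16 of 16 mice (2.55-fold, adjusted p = 1.42e-13), Prdm1 in 16 (2.41-fold, adjusted p = 7.86e-12), Id3 in 16 (1.60-fold, adjusted p = 1.14e-10) and Irf4 in 15 (1.43-fold, adjusted p = 6.41e-08). Myb was lower in Tregs in 16 of 16 mice, at 0.252 of the Tcon level (adjusted p = 3.75e-14), and Id2 in 16, at 0.691 (adjusted p = 2.36e-08). Bach2 was close to equal in the 2 cell types, with Tregs at 0.915 of Tcons (adjusted p = 0.00725) and higher in 4 of 16 mice by CPM. In PBS mice alone 5 of 7 genes passed (50.4% of genes), with Myb at 0.393 of the Tcon level, while Irf4 and Bach2 differed by 0.12 ± 0.10 and -0.09 ± 0.08 SE (adjusted p = 0.348 and 0.375). In IL-2-treated mice 7 of 7 passed (80.8%), with Myb at 0.217 and Batf at 2.74 times the Tcon level. Plasma cell markers were lower in the Tregs of IL-2-treated mice (5 of 5 lower, median log2 difference -0.98), while in PBS mice 1 of 5 was higher and 0 lower (median 0.57), the direction of Prdm1 there. All 4 NK cell markers were lower in Tregs over all mice (median -2.33), as were both CD8 T cell markers (median -1.01), the direction of Id2. All 5 B cell markers were lower too (median -2.34), the direction of Bach2 and opposite to that of Irf4, which B cells also express. The part of these cells in the Prdm1, Irf4, Id2 and Bach2 comparisons was not tested.

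**Figure D4:**
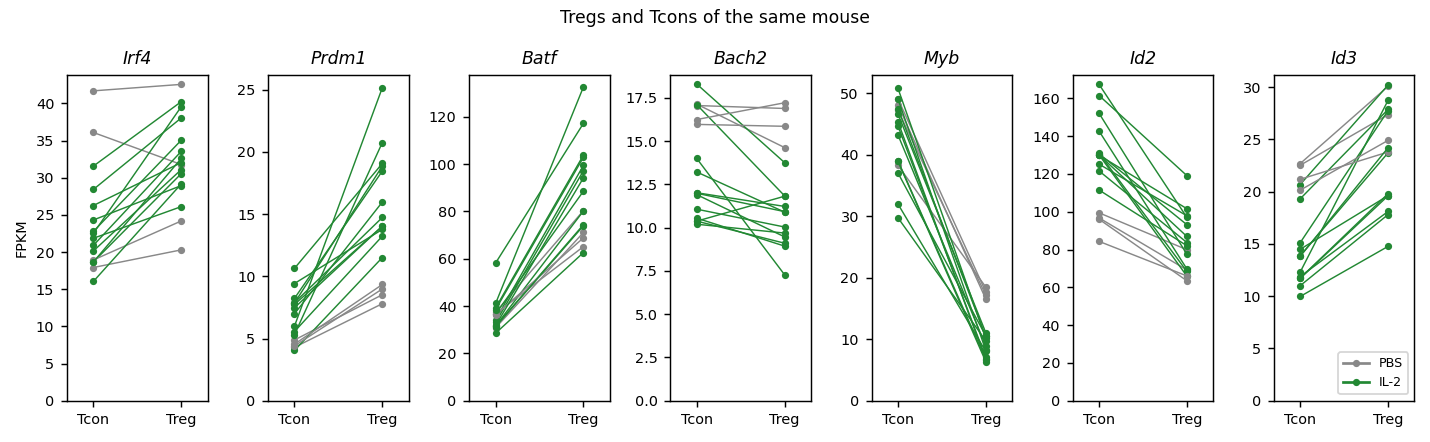
FPKM of each regulator (vertical axis, from 0 in each panel) in Tcons and Tregs of the same mouse, 1 line a mouse, grey for PBS and green for IL-2-treated mice. All 16 lines rise for Batf, Prdm1 and Id3, and all 16 fall for Myb and Id2.

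Tcons moved some of the same genes. With both antibody arms in 1 fit (4 mice a treatment), Prdm1 was at 18.6 to 21.4 CPM with PBS, 31.3 to 47.0 CPM with WT IL-2, 31.1 to 33.6 CPM with H16R and 17.2 to 23.3 CPM with 3x. It rose 1.91-fold with WT IL-2 (adjusted p = 0.000956) and 1.67-fold with H16R (adjusted p = 0.00186), against 1.09-fold with 3x (adjusted p = 0.592). The highest Prdm1, 47.0 CPM, and the highest Batf, 55.0 CPM, belonged to the isotype WT IL-2 library with the Treg markers, and without it 4 genes were again called with WT IL-2. Plasma cell markers followed the same 2 molecules in Tcons (5 of 5 higher for each of WT IL-2 and H16R, 0 of 5 called for 3x), and their part in the Prdm1 rise was not tested. Bach2 was lower with WT IL-2 (log2 -0.65 ± 0.10 SE, adjusted p = 0.00184) and H16R (-0.53 ± 0.10 SE, adjusted p = 0.00357). B cell marker sums in isotype Tcons were 763 to 830 CPM with PBS, 180 to 294 CPM with WT IL-2 and 132 to 179 CPM with H16R, and in blocked Tcons 116 to 125, 224 to 277 and 127 to 238 CPM. Id2 rose with all 3 molecules, by 0.52, 0.65 and 0.43 (adjusted p = 0.00583, 0.00115 and 0.0281). Of the 4 NK cell markers, 2 were also higher in Tcons for each of WT IL-2 and H16R and 1 for 3x, and their sum ran from 30.3 to 68.0 CPM in PBS Tcons and from 60.8 to 148 CPM in IL-2-treated ones. Myeloid markers had medians of 29.4 CPM in blocked PBS Tcons and 435, 108 and 154 CPM after the 3 molecules, but of 91.9 CPM in isotype PBS Tcons and 48.1, 25.3 and 38.0 CPM after them, where mean Id2 was at 120 CPM with PBS and at 150, 181 and 164 CPM. CD8 T cell markers had medians of 7.07 CPM in blocked PBS Tcons and 49.2, 24.1 and 19.7 CPM after the 3 molecules, and of 21.6 CPM in isotype PBS Tcons and 21.8, 13.1 and 14.9 CPM after them. The part of these cells in the Id2 rise was not tested. Id3 fell with all 3, by 0.67, 0.81 and 0.53 on the log2 scale (adjusted p = 0.01, 0.00287 and 0.0529). The 3x value pools unlike arms, with Id3 at 28.4 and 28.0 CPM with PBS and 24.5 and 26.6 CPM with 3x in isotype Tcons, and at 25.4 and 26.8 CPM against 12.1 and 14.6 CPM in blocked ones. Batf and Myb passed no test in Tcons, with differences from PBS of -0.02 to 0.12 (± 0.18 SE) for Batf and -0.16 to -0.11 (± 0.14 SE) for Myb. In all, 4 of 7 genes were called with WT IL-2 (27.2% of 12526 tested genes), 4 with H16R (31.1%) and 3 with 3x (9.88%), and MHC II block called 3, all lower (28.9%): Irf4 (-0.37, adjusted p = 0.0608), Bach2 (-0.20, adjusted p = 0.0632) and Id3 (-0.37, adjusted p = 0.0335). These block values pool unlike treatments. Mean Irf4 was at 181 CPM with isotype and 86.8 CPM with block in PBS Tcons, but at 102 and 112 CPM with H16R. Mean Bach2 was at 127 and 89.7 CPM with 3x, but at 82.6 and 81.0 CPM with H16R. Irf4 was lower with 3x (log2 -0.59 ± 0.18 SE, adjusted p = 0.0785), at 72.8 to 95.2 CPM against 194 and 167 CPM in the isotype PBS Tcons and 84.4 and 89.1 CPM in the blocked ones. The isotype PBS Tcons also had the most B cell marker RNA, 763 to 830 CPM against 101 to 384 CPM in all other Tcon groups, and block lowered 4 of 5 B cell markers in Tcons. The part of B cells in the Irf4 and Bach2 differences of Tcons was not tested. The calls of Irf4 and Id3 with 3x and of Irf4 and Bach2 with block were each lost in 3 to 7 of 16 fits that left out 1 library, with adjusted p-values up to 0.17. Whether a response differed between Tregs and Tcons was not tested.

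The 7 genes lie at these positions on GRCm38 (GENCODE vM21): Irf4 at chr13:30749226-30766976, Prdm1 at chr10:44437177-44528501, Batf at chr12:85686669-85709087, Bach2 at chr4:32238804-32586108, Myb at chr10:21124935-21160984, Id2 at chr12:25093799-25097140 and Id3 at chr4:136143497-136145755. All are protein-coding, and the values cover the whole gene.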

How the data were processed

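The authors aligned stranded mRNA libraries to mouse build B38 (GRCm38) by OSA (Omicsoft Array Suite) and ran its version of RSEM. The expected counts they deposited are not normalized, and the FPKM values the authors deposited divide by transcript length and mapped reads. Deposited tables of the authors' own DESeq2 comparisons (fold changes, Wald statistics, adjusted p-values) were not used. Columns of other samples numbered 0. Groups came from the labels, where 2 isotype WT IL-2 Treg mice share the number 3 and are called 3a and 3b here.

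Expected counts were rounded and tested in R 4.3.3 with edgeR 4.0.16 (quasi-likelihood, TMM, Benjamini-Hochberg over all tested genes, threshold 0.1). Genes were kept when protein-coding (GENCODE vM21, which holds 96.6% of the names), above 0.5 CPM in at least 4 fitted libraries, and without an empty cell. Treg contrasts came from 1 fit of 32 libraries and Tcon contrasts from 16, with antibody arm as a term. The comparison of cell types had mouse as a block, since both libraries of a mouse carry 1 number (8 of 8 pairs checked correlated above 0.1, mean r = 0.301). Standard errors came from the F statistic. The fits were first tested on simulated counts.

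Members and gene lists were chosen with earlier results of these data known. The text names all 7 members, the 3 genes most correlated with each, and up to 4 genes a list with the largest change past the threshold. Alternatives were library totals, DESeq2 1.42.0, no filter, every biotype, limma 3.58.1 on log2(FPKM + 1), replicate blocks, empty cells as 0, fits of the 2 groups compared, and leaving out libraries. No 2 libraries of a group were copies (lowest chi-square per gene 3.87).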

Additional observations from a re-analysis of the deposited data

Results flagged for a closer look

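The response to IL-2 against PBS differed between the antibody arms, by the interaction term of edgeR's quasi-likelihood fit, in 13 of 21 tests (7 genes and 3 molecules), 3 with WT IL-2, 3 with H16R and 7 for 3x, where 19.7%, 19.1% and 39.0% of all tested genes differed. These interactions share the PBS libraries of each arm. For WT IL-2 they were Prdm1 (-0.52), Batf (-0.57) and Id2 (0.51). For H16R they were Irf4 (0.42), Id2 (0.64) and Id3 (-0.45). For 3x they were Irf4 (0.48), Prdm1 (0.73), Batf (0.72), Bach2 (-0.67), Myb (0.42), Id2 (0.66) and Id3 (-0.65). All are on the log2 scale, with positive values where the change under MHC II block was the higher one. For 3x the response of 5 of 5 plasma cell and 5 of 5 B cell markers was also higher under block, and the summed plasma cell markers of 3x-treated Tregs were 85.5 to 184 CPM with isotype and 600 to 1399 CPM under block. Their part in these differences was not tested.

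Among 56 sets of 4 mice, 2 held a mouse far from the other 3 by Dixon's criterion, where chance gives about 1 in 20: Batf in isotype H16R replicate 1 (88.3 CPM) and Myb in isotype WT IL-2 replicate 1 (30.6 CPM). Both were the lowest of their group.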

How the results depend on the processing

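Of 123 calls among 182 tested values, 105 passed the threshold in every alternative run, and no called value changed direction in any. The calls lost most often were Id2 in H16R against WT IL-2 under block (kept in 11 of 41 alternatives, adjusted p from 0.0469 to 0.458), Id3 in 3x against H16R under block (14 of 41), Id3 in block against isotype in PBS mice (21 of 41), and Irf4 in WT IL-2 against PBS with isotype (24 of 41). DESeq2 lost 2 calls and gained 2, library totals 3 and 3, no filter 6 and 1, every biotype 5 and 1, limma on FPKM 4 and 5, fits of 2 groups 5 and 6. Without the 2 Treg libraries set apart 3 were lost and 3 gained, and the interaction of Irf4 with H16R then fell to 0.31 (adjusted p = 0.137). Reading empty cells as 0 changed none.

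Same-numbered Treg mice did not deviate together (27 of 112 pairs above 0.1, mean r = 0.006), so numbers were not used as a pairing. With the replicate block 1 call of 161 values was lost, and without the mouse block none of 21 changed.

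Leaving out 1 library gave 1 to 4 called genes for 3x against H16R under block (3 in the full fit, 1 without 3x replicate 1 or 4 or H16R replicate 1 or 2), 2 to 5 for the H16R interaction (5 without isotype PBS replicate 4), 1 to 3 for 3x against PBS in Tcons (1 without either blocked 3x Tcon) and 1 to 3 for block against isotype in Tcons (1 without blocked 3x replicate 1). Groups of 2 Tcons and 4 Tregs limit what small differences can show.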
